A study of Brassica rapa with 28 samples.

Results

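The genotype difference in the dark response of Brassica rapa leaves was taken as the change from the pre to the dark sample of each plant pool, compared between the BrphyB-3 mutant and the wild-type line R-o-18. Its members were the 14 of 28 libraries sampled at those 2 stages, 8 from the wild type and 6 from the mutant, each chosen by the genotype and stage in its label. The quantity tested for every gene was the change in the mutant minus the change in the wild type, called the interaction, with plant pool as a block. A gene was classed as weaker when it moved the same way in both genotypes and less in the mutant, as stronger when it moved further in the mutant, and as opposite when the signs differed.

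Phytochrome B is a red and far-red light photoreceptor. In Arabidopsis, its light-activated form enters the nucleus and promotes the breakdown of PIF transcription factors. In darkness these factors accumulate, and they are known there to promote senescence of leaves kept in the dark, a course in which genes of photosynthesis fall and genes of breakdown and nutrient export rise. Covering a single leaf while the rest of the plant stays in the light is a common way to start this course.

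Wild-type plants carried no mutation named in the labels and served as the controls. The mutant was 1 line, BrphyB-3, in the R-o-18 background, so differences between genotypes belong to that line, and the labels did not say what kind of mutation it holds. Plants of both genotypes were 3 weeks old, in long days of 16 h light and 8 h dark. Each pool combined leaf punches of 28 mm2 from 3 plants. The wild type had 4 pools with the numbers 3 to 6, and the mutant had 3 with the numbers 3 to 5. The pre sample was cut from the first true leaf, and the second true leaf was then wrapped in foil. The 24hr sample came from the uncovered leaf 24 h later, the dark sample from the covered leaf 48 h after that, and the recovery sample from the same leaf after a further 24 h without foil. Leaf and darkness therefore cannot be told apart within the dark minus pre change, in either genotype. In these bulk punches, fewer cells of a type and less RNA per cell cannot be told apart either.

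The 14 libraries held 4928822 to 12091273 counts. The shallowest were wild-type pool 3 at pre, with 5221760 counts, and wild-type pool 4 at dark, with 4928822. Of 48826 gene IDs, 12503 had 0 counts in every library and 24992 were tested, which held 99.9% of the counts. The IDs were not paired with gene names by the files, and 0 of them matched the RefSeq table used here. Lists of leaf cell markers and of light, clock and senescence genes could therefore not be applied, and the tissue and the mutated gene could not be checked against the labels. At most 2 IDs are printed in each direction, and the other genes are described by the series of their ID, such as A10.

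Much of the leaf transcriptome changed between pre and dark in both genotypes, and the size of that change did not differ between them beyond the spread between pools. Averaged over the genotypes, 17752 genes, or 71% of those tested, changed between pre and dark in edgeR's quasi-likelihood test at a Benjamini-Hochberg adjusted p under 0.05. Of these, 5240 rose by at least 1 log2 unit and 6690 fell by at least 1, and they are called the raised and the lowered genes. The raised genes gained a mean of 2.60, 1.65, 1.87 and 1.94 log2 units of CPM (counts scaled to a common library size) in wild-type pools 3, 4, 5 and 6. They gained 1.88, 1.70 and 2.01 in mutant pools 3, 4 and 5. All 3 mutant pools lay within the wild-type range, and wild-type pool 3 stood highest.

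The mean rise of the raised genes was 2.01 ± 0.41 (SD, n = 4) in the wild type and 1.86 ± 0.15 (SD, n = 3) in BrphyB-3. Their difference of -0.15 log2 units gave a two-sided exact permutation p of 0.8 over the 35 splits of the 7 pools, where the smallest possible p is 0.0286. Without wild-type pool 3 the difference was 0.021. The lowered genes changed by -2.63, -1.88, -2.29 and -1.97 log2 units in wild-type pools 3 to 6, and by -2.15, -1.89 and -2.63 in mutant pools 3 to 5. These ranges coincided almost fully, with pools of each genotype at both ends. The mean change was -2.19 ± 0.34 (SD, n = 4) in the wild type and -2.22 ± 0.37 (SD, n = 3) in the mutant, with an exact permutation p of 0.943.

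**Figure D1:**
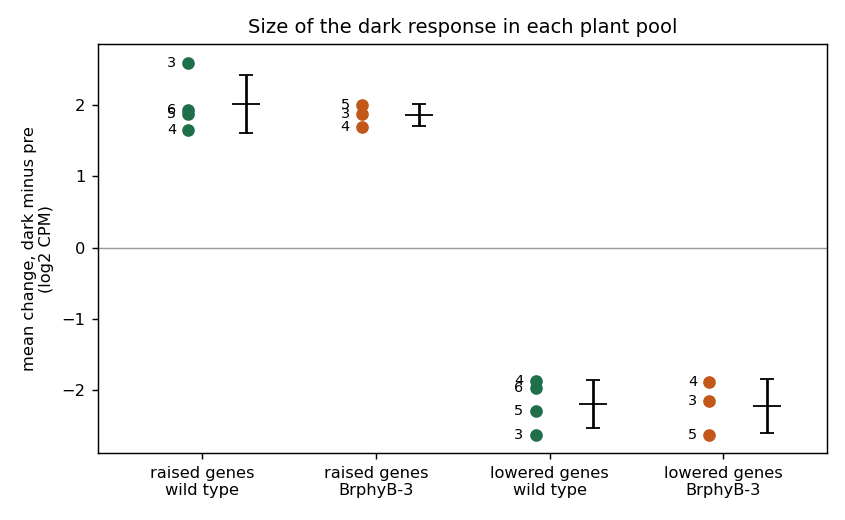
Mean change from pre to dark, in log2 CPM, of the 5240 raised and 6690 lowered genes in each plant pool; points are pools labelled by number, and bars are the mean and SD of 4 wild-type or 3 mutant pools. The mutant pools sit within the wild-type range for raised genes, and wild-type pool 3 stands highest at 2.60.

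The library names in the labels began with a letter from a to e that was shared by all libraries of a pool, and its meaning was not given. Both genotypes met under the letters a and d, with 1 pool apiece, and the other letters held a single pool. Within letter a the mutant minus wild-type difference was -0.72 for the raised genes and 0.48 for the lowered genes. Within letter d it was 0.13 and -0.33. The sign thus turned between the letters for both sets, and no difference in response size held within them.

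The raised genes took up a similar part of the RNA in both genotypes. At pre they held 7.86%, 8.58%, 9.32% and 10.4% of the counts in wild-type pools 3 to 6, and 9.12%, 9.61% and 8.35% in the mutant pools. At dark they held 48.2%, 34.9%, 42.7% and 41.7% in the wild type and 40.6%, 37.7% and 44.5% in the mutant. The genotypes overlapped at both stages. The share rose in every pool, but raised and lowered genes were chosen by their change over these same pools. A rise or fall of their share was therefore built in, and only the genotypes are compared here. The lowered genes went from 55.4% ± 1.67 (SD, n = 4) to 11.6% ± 3.89 in the wild type and from 53.3% ± 4.06 (SD, n = 3) to 12.4% ± 3.05 in the mutant. The two-sided exact permutation p for the share of the lowered genes at dark was 0.8, and that of the raised genes was higher.

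Genes were also grouped by the size of their change averaged over the genotypes, a grouping chosen after seeing the data. The 541 genes that rose by 4 log2 units or more gained 4.37 ± 0.71 (SD, n = 4) in the wild type and 3.54 ± 0.58 (SD, n = 3) in the mutant. Their difference of -0.83 was the widest of the 10 groups. The wild-type pools ran from 3.55 to 5.18 and the mutant pools from 2.89 to 3.96, so the genotypes overlapped. The two-sided exact permutation p was 0.2, and 0.971 after Benjamini-Hochberg adjustment over the 10 groups. In the next 2 groups down, with rises of 3 to 4 and of 2 to 3, the difference was -0.43 and -0.20. In the 4 groups that fell by more than 1 log2 unit it lay between -0.10 and 0.10.

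Many of the most raised genes were at the edge of detection at pre. The 536 of them that also passed the test of change took only 0.17% ± 0.08 (SD, n = 4) of the counts at pre in the wild type and 0.14% ± 0.02 (SD, n = 3) in the mutant. At dark these shares were 5.78% ± 2.13 and 5.4% ± 1.20. Only 199 of the 536 had more than 3 counts in a pre library of each genotype, where 3 counts is what a count of 0 still allows. Over those 199 genes the difference in rise was -0.35 log2 units (exact permutation p 0.8, two-sided).

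**Figure D2:**
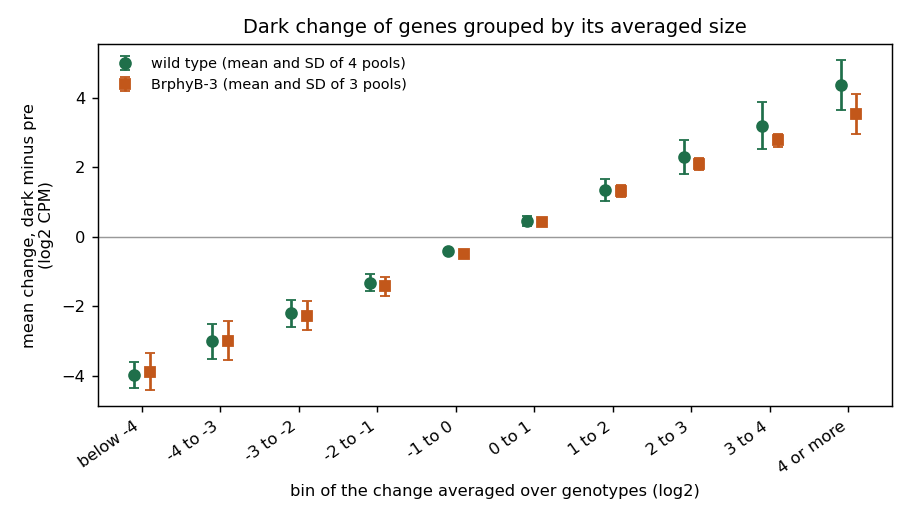
Mean change from pre to dark, in log2 CPM, of genes grouped by their change averaged over genotypes; circles and squares are means over 4 wild-type and 3 mutant pools, and bars are SDs. The genotypes overlie one another except at the top end, where the mutant mean is 3.54 against 4.37 and the bars still overlap.

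The pattern of change across genes was nearly as alike between genotypes as among wild-type pools. Each pool's changes over the 24992 genes were correlated with the mean changes of 3 wild-type pools, the pool itself left out. Pearson's r was 0.826 to 0.879 for the wild-type pools and 0.789, 0.864 and 0.858 for mutant pools 3, 4 and 5. Mutant pool 3 had the lowest value, and the others lay within the wild-type range. Genes are not independent replicates and the 3-pool means share libraries, so these values are a description without a test.

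Against this shared response, 8 of 24992 genes (0.032%) had a dark change that differed between genotypes in edgeR's quasi-likelihood test at that threshold of the adjusted p. The change was lower in the mutant for 6 of them (0.024%) and higher for 2 (0.008%). By class, 5 (62.5%) were weaker in the mutant, 3 (37.5%) were opposite and 0 were stronger, beside 41.1%, 12.4% and 46.5% of all tested genes. The change in 1 genotype did not itself pass for the opposite genes b and d, described below. The older form of the same edgeR test called 5 and the DESeq2 Wald test called 82, which included all 8. By the changes fitted in edgeR, 39 of the 82 were weaker, 8 stronger and 35 opposite. Without wild-type pool 4, 5 or 6 the count fell to 1, without mutant pool 3 to 2 and without mutant pool 4 to 5. Without wild-type pool 3 or mutant pool 5 it was 8 and 7, but only 4 and 3 of these were among the 8. With same-numbered pools of the genotypes compared as pairs, 9 genes passed, and BraA05000169 and BraA09006975 were the only 2 of the 8 among them. The other 6 then had adjusted p-values of 0.0667 to 0.203.

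**Figure D3:**
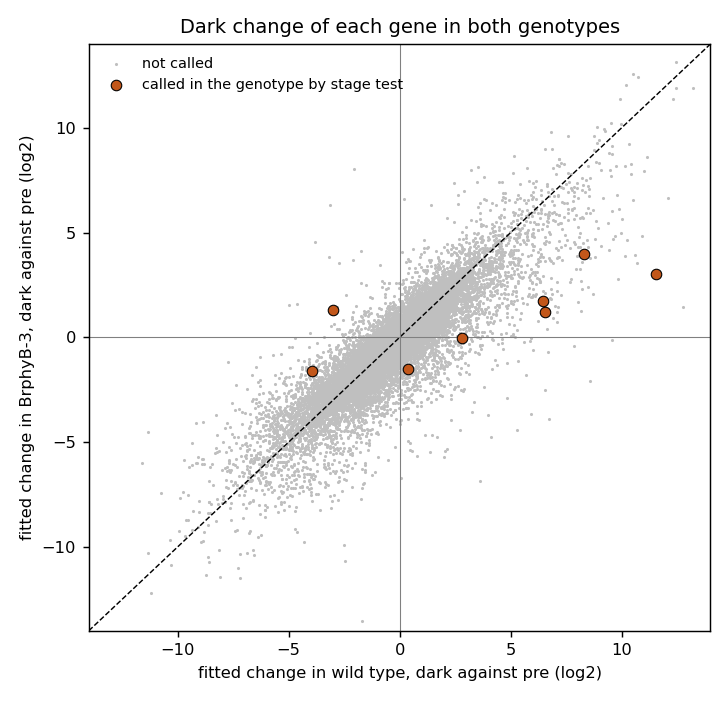
Fitted change from pre to dark (log2) of 24992 genes in the wild type (horizontal axis) and in BrphyB-3 (vertical axis); the dashed line marks equal change, and large points mark the 8 called genes. Most genes lie along the line, and 6 called genes lie below it and 2 above.

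Among single genotypes, 15387 genes (61.6%) changed between pre and dark in the wild type and 14559 (58.3%) in BrphyB-3 at the same threshold. The wild type had 4 pools and the mutant 3, so these counts do not compare the size of the response. Both genotypes called 12449, of which 17 (0.137%) had opposite signs. Of these 17, 10 rose in the wild type and fell in the mutant, and 7 did the reverse. All 17 had an unadjusted interaction p under 0.05, beside 8.78% of all tested genes, and 1 passed the adjusted test. Pool changes did not overlap between genotypes for 15, beside 6.35% of all tested genes. Passing with opposite signs in the same fit makes both very likely, so they are no further support. Only 5 reached a mean of 10 CPM in any of the 4 groups. A further 2938 genes were called in the wild type alone and 2110 in the mutant alone. The interaction had an unadjusted p under 0.05 for 621 and 500 of these, larger shares than the 8.78% of all tested genes. Being called in 1 genotype alone favours genes that differ in the same fit, so the larger shares are no further support. Most genes called in 1 genotype were not shown to differ between the genotypes.

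At an unadjusted p under 0.05, the interaction took in 2194 genes (8.78%), 1205 (4.82%) with a higher and 989 (3.96%) with a lower change in the mutant. By class, 37.1% were weaker, 31.2% stronger and 31.6% opposite, beside 41.1%, 46.5% and 12.4% of all tested genes. Pool changes did not overlap between genotypes for 1587 genes (6.35%), 752 with a lower and 835 with a higher change in the mutant. In each direction, full separation is 1 of the 35 splits of the 7 pools, a share of 0.0286. Most of the 6.35% would thus be met without a genotype difference. For 734 of them (2.94%) the means were at least 1 log2 unit apart, 472 lower and 262 higher in the mutant. The unadjusted share rose with level, from 7.12% of genes whose highest group mean was under 1 CPM to 13.1% of those at 100 CPM or more. The precision rose with level too, with a median SE of the interaction of 1.34 below 1 CPM and 0.33 at 100 CPM or more.

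The design left room for differences that the test did not call. The median SE of the interaction was 0.46 log2 units. The 95% interval lay within 1 log2 unit of 0 for 7858 genes (31.4%), including 26.0% of the raised and 15.7% of the lowered genes. No SE could be derived for 57 genes, and for the rest the interval reached past 1 log2 unit. The middle 95% of the fitted interactions ran from -2.62 to 1.65.

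Of the called genes, 3 rose from near 0 in the wild type and from a clearly detected level in the mutant, and the genotypes lay much closer together at dark. BraA05000169 had 2 to 3 counts in each wild-type pre library, or 0.408, 0.277, 0.341 and 0.365 CPM in pools 3 to 6. At dark it had 37.0, 23.8, 36.3 and 29.3 CPM. Mutant pools 3, 4 and 5 had 7.36, 15.4 and 29.5 CPM at pre and 24.3, 57.1 and 85.8 CPM at dark. Every mutant pre library lay above every wild-type pre library, while the dark libraries overlapped. From summed counts the rise was 97.2-fold in the wild type (95% interval 54.2 to 195) and 3.14-fold in the mutant (2.86 to 3.46), where the intervals cover counting error only. The pool changes were 5.68 to 6.10 log2 units in the wild type and 1.54 to 1.88 in the mutant. The interaction was -4.73 (SE 0.43, edgeR quasi-likelihood with Benjamini-Hochberg adjusted p 4.11e-06), and it passed in all 15 alternative settings that could change its p, with adjusted p-values up to 0.0396. Within library letters a and d the difference of the pool changes was -4.26 and -4.57.

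BraA09006975 followed the same course at a higher level. It had 0.816, 0.185, 1.02 and 0.365 CPM in wild-type pools 3 to 6 at pre, from 2 to 9 counts, and 302, 118, 182 and 143 CPM at dark. The mutant pools, in the same order, had 8.58, 28.5 and 56.0 CPM at pre and 328, 354 and 449 CPM at dark. The mutant libraries were higher at both stages without overlap, by far more at pre than at dark. The rise was 360-fold in the wild type (counting interval 228 to 607) and 12.4-fold in the mutant (11.7 to 13.2). The interaction was -4.35 (SE 0.67, edgeR quasi-likelihood, adjusted p 0.0128). It no longer passed without wild-type pool 4, 5 or 6 or mutant pool 4 or 5, with adjusted p-values of 0.0557 to 0.112, nor when only the 14 libraries were fitted, with 0.088. Its value stayed between -5.04 and -3.79 over the alternative settings.

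A gene of the A10 series, called gene a here, had 0 counts in all 4 wild-type pre libraries and 20.4, 36.4, 44.3 and 33.1 CPM at dark. Mutant levels were 4.25, 13.7 and 13.3 CPM at pre and 45.8, 108 and 85.8 CPM at dark. It was detected in each mutant pre library, and every mutant dark library lay above every wild-type one. Against the floor of 3 counts per library, 0.399 CPM on average, the rise in the wild type was at least 84.2-fold, and in the mutant it was 7.69-fold (counting interval 6.87 to 8.62). The fitted interaction of -8.53 (SE 1.09, edgeR quasi-likelihood, adjusted p 0.0128) depends on the prior count, and it was -4.53 with a prior count of 2. The call was lost in 8 of 15 settings (adjusted p from 3.58e-07 to 0.112 over all), among them without wild-type pool 4, 5 or 6 or mutant pool 3 or 4, with adjusted p-values of 0.0557 to 0.112.

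Another A10 gene, gene c, rose strongly in the wild type and little in the mutant, whose pools disagreed. It had 0, 0.277, 0.227 and 0.243 CPM in wild-type pools 3 to 6 at pre, at most 3 counts each, and 34.6, 21.7, 17.4 and 15.2 CPM at dark. The mutant pools had 4.25, 1.02 and 0.0944 CPM at pre and 1.38, 6.54 and 2.74 CPM at dark. Every mutant dark library was below every wild-type one, and mutant pool 3 fell while pools 4 and 5 rose. The interaction was -5.32 (SE 0.96, edgeR quasi-likelihood, adjusted p 0.042). Without mutant pool 3 it was -3.54 with an adjusted p of 0.353, and without any 1 wild-type pool the adjusted p was 0.0904 to 0.281. The call was lost in 9 of 15 settings, with an adjusted p of 0.595 when only the 14 libraries were fitted. Within library letters a and d the difference of the pool changes was -9.01 and -2.03.

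A gene of the unplaced scaffold series, gene d, rose in the wild type and not in the mutant. It had 1.02, 5.54, 7.61 and 6.20 CPM in wild-type pools 3 to 6 at pre and 22.4, 37.9, 39.6 and 41.5 CPM at dark. In BrphyB-3 it had 11.9, 28.5 and 21.8 CPM at pre and 18.6, 19.8 and 18.4 CPM at dark. The mutant was the higher genotype in every library at pre and the lower in every library at dark. The fitted change was 2.79 (SE 0.34, adjusted p 9e-07) in the wild type and -0.02 (SE 0.35, adjusted p 0.962) in the mutant, by edgeR's quasi-likelihood test. The interaction was -2.81 (SE 0.49, adjusted p 0.042), and it passed in 4 of 15 settings (adjusted p from 3.84e-05 to 0.233). It was lost without any 1 pool other than wild-type pool 3, with adjusted p-values of 0.0742 to 0.233.

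An abundant gene of the A05 series, gene b, fell in the mutant between pre and dark. It had 127, 129, 119 and 114 CPM in wild-type pools 3 to 6 at pre and 223, 204, 133 and 102 CPM at dark. Mutant levels were 191, 151 and 137 CPM at pre and 48.9, 69.9 and 51.9 CPM at dark. All 3 mutant pools ended below all 4 wild-type pools, having started above them. The fitted change was 0.37 (SE 0.19) in the wild type, with an adjusted p of 0.0903, and -1.49 (SE 0.22) in BrphyB-3, where the adjusted p was 1.33e-05 in edgeR's quasi-likelihood test. The interaction was -1.86 (SE 0.29, adjusted p 0.0193). It was lost without any 1 pool other than mutant pool 4, with adjusted p-values of 0.0658 to 0.233. It was also lost without the block (0.0631), with pairs by number (0.0667) and when only the 14 libraries were fitted (0.319), and its value stayed between -2.09 and -1.65.

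**Figure D4:**
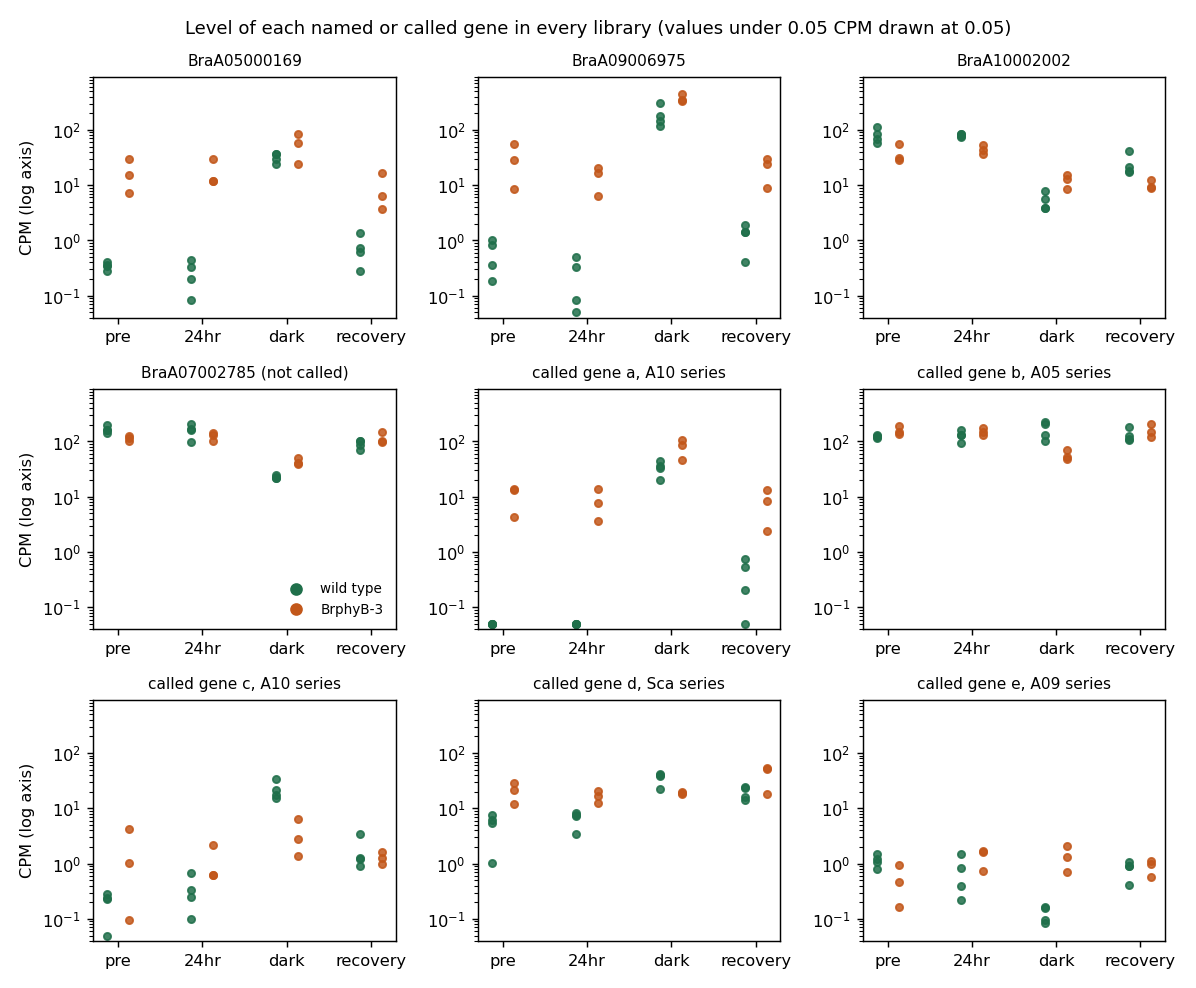
CPM (log axis) of the 8 called genes and of BraA07002785, which was not called, in every library by stage and genotype; each point is 1 library, and values under 0.05 CPM are drawn at 0.05. In BraA05000169, BraA09006975 and gene a the wild type is near 0 at pre and 24hr while the mutant is not, and both are high at dark.

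The 2 genes with a higher change in the mutant were of different kinds. BraA10002002 fell in both genotypes and less in the mutant. It had 113, 84.7, 58.1 and 68.9 CPM in wild-type pools 3 to 6 at pre and 5.61, 7.88, 3.90 and 3.83 CPM at dark. In BrphyB-3 it had 29.1, 56.6 and 31.5 CPM at pre and 15.1, 13.2 and 8.57 CPM at dark. The mutant was lower in every library at pre and higher in every library at dark. Its dark level was 0.0642 of the pre level in the wild type (counting interval 0.0554 to 0.0741) and 0.321 in the mutant (0.286 to 0.36). The interaction was 2.35 (SE 0.39, edgeR quasi-likelihood, adjusted p 0.042). It was lost without any 1 of the 7 pools, with adjusted p-values of 0.0546 to 0.318, and in 11 of 15 settings in all, and its value ranged from 1.94 to 2.59.

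The other, gene e of the A09 series, was a low gene. It had 6 to 16 counts in the wild-type libraries at pre and 1 to 2 at dark, against 2 to 11 and 8 to 18 in the mutant. In wild-type pools 3 to 6 this was 1.22, 1.48, 0.796 and 1.09 CPM at pre and 0.16, 0.164, 0.0951 and 0.085 CPM at dark. The mutant pools had 0.163, 0.935 and 0.472 CPM at pre and 0.691, 1.31 and 2.06 CPM at dark. The wild type fell below the floor of 3 counts in every dark library, and every mutant pool rose from its pre level. It was the 1 gene called in the interaction that also changed in opposite directions in both genotypes, by -3.0 (adjusted p 0.000206) and 1.31 (adjusted p 0.0249) in edgeR's quasi-likelihood test. The interaction of 4.32 (SE 0.79, adjusted p 0.042) was 3.09 with a prior count of 2, and the call was lost in 12 of 15 settings. With 24hr as the start it was 2.40 (adjusted p 0.268), and the mutant pools had 0.745, 1.63 and 1.67 CPM at 24hr. Without any 1 pool other than mutant pool 4, the adjusted p was 0.0658 to 0.304.

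BraA07002785 was the next gene with a higher change in the mutant, and it did not pass in edgeR. It had 163, 159, 142 and 196 CPM in wild-type pools 3 to 6 at pre and 21.6, 21.8, 22.7 and 25.1 CPM at dark. Mutant levels were 124, 116 and 100 CPM at pre and 50.8, 41.5 and 38.4 CPM at dark. Neither stage overlapped between genotypes. Its pool changes were -2.96 to -2.63 in the wild type and -1.48 to -1.29 in the mutant. Pool changes that do not overlap were a condition for naming an ID, so that gap is no further support. The interaction was 1.47 (SE 0.29, edgeR quasi-likelihood, adjusted p 0.117), and DESeq2 gave an adjusted p of 0.0018.

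The called genes differed in the stage at which the genotypes stood apart. At pre, 34 of all genes (0.136%) differed between mutant and wild type by edgeR's quasi-likelihood test without the block, and 3 of the 8 were among them. These were BraA05000169, BraA09006975 and gene a, all higher in the mutant. The log2 difference was 5.64 and 5.76 for the named IDs, and gene a, with 0 counts in the wild type, was at least 26.1-fold higher against the floor. At dark, 50 genes (0.2%) differed, and again 3 of the 8 were among them, namely gene b at -1.54, gene c at -2.64 and gene e at 3.30. No called gene passed at both stages, and gene d and BraA10002002 passed at neither. The pre and dark libraries were those that chose these genes, so the differences describe them and are not further support.

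The 24hr and recovery libraries did not enter the interaction contrast, though they came from the same plants. They were also part of the fit that set its spread and pool terms, so they are not an independent check. At 24hr, 36 genes (0.144%) differed between the genotypes, and BraA05000169, BraA09006975 and gene a were among them. The difference was 6.05 and 5.88 log2 units for the named IDs and at least 29.7-fold for gene a, again with 0 counts in the wild type. At recovery, 52 genes (0.208%) differed, and the same 3 genes were among them, at 3.51, 3.99 and 4.33. In all 3 genes the fitted genotype difference was thus smallest at dark, where it was 0.81, 1.02 and 1.26 and did not pass. The other 5 called genes did not pass at 24hr or recovery, where their differences ran from -1.26 to 1.68.

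**Figure D5:**
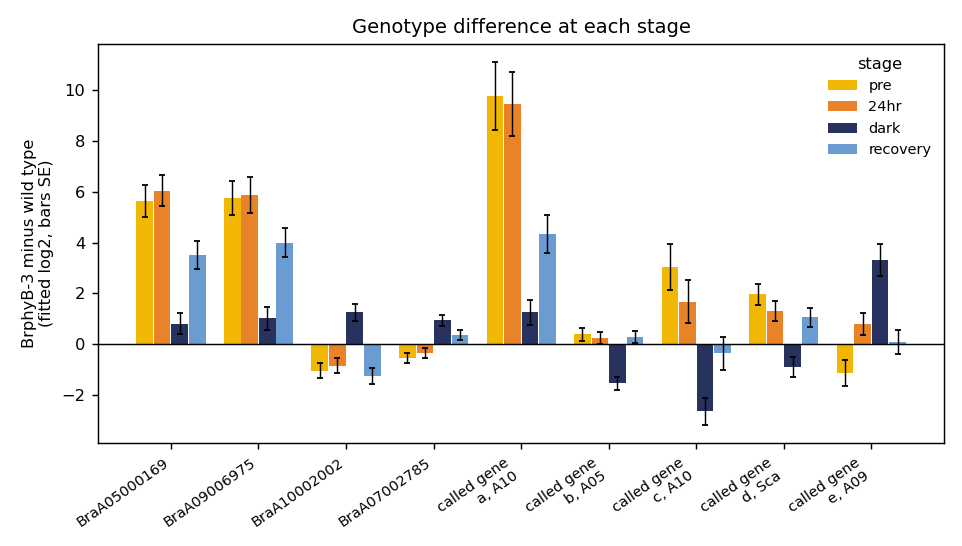
Fitted log2 difference, BrphyB-3 minus wild type, at each stage for the 8 called genes and BraA07002785; bars are the estimates and whiskers their SEs, and the pre and 24hr bars of gene a depend on the prior count because its wild-type counts are 0. BraA05000169, BraA09006975 and gene a are higher in the mutant at pre, 24hr and recovery and close to the wild type at dark, while gene b departs from 0 at dark.

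Levels of single genes in the 24hr and recovery libraries showed the same split. In wild-type pools 3 to 6, BraA05000169 had 0.447, 0.332, 0.0831 and 0.199 CPM at 24hr and 0.719, 0.286, 0.609 and 1.34 CPM at recovery. The mutant pools had 12.1, 11.8 and 29.3 CPM at 24hr and 3.65, 6.27 and 16.4 CPM at recovery. The genotypes did not overlap at either stage. BraA10002002 had 17.5, 41.8, 18.3 and 21.4 CPM in the wild type at recovery and 8.91, 12.5 and 9.39 CPM in the mutant. The mutant was again the lower genotype in every library, after being the higher one at dark.

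The same question was asked of the other 14 libraries, as the recovery minus 24hr change, which compares the same 2 leaves after the foil had come off. By edgeR's quasi-likelihood test 0 genes (0%) passed with all pools, 1086 (4.35%) had an unadjusted p under 0.05, and DESeq2 called 13. Leaving out wild-type pool 5 or mutant pool 4 gave 1 each. Among the called genes, BraA05000169 had a recovery minus 24hr interaction of -2.63 (SE 0.53, unadjusted p 5.01e-05, adjusted p 0.209). BraA09006975 had -1.95 (SE 0.83) and gene a -5.20 (SE 1.45), with adjusted p-values of 1 and 0.938, and the value of gene a depends on the prior count. All 3 kept the sign of their dark interaction and none passed.

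The wider set of genes at an unadjusted p under 0.05 was followed in the same way. Of the 989 with a lower dark change in the mutant, 69.1% also had a lower recovery minus 24hr change, and 62.2% of the 1205 with a higher change kept that sign. Over all tested genes the signs matched for 55.7%. The libraries of the 2 contrasts differ, but the plants and the fit are shared, so these shares are given as a description.

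In that set, the larger genotype difference more often lay at pre for raised genes and at dark for lowered genes, whatever the interaction's sign. For 256 raised genes with a lower change in the mutant, the median mutant minus wild-type difference was 1.26 log2 units at pre and -0.76 at dark. At 24hr and recovery, which were outside the contrast but part of the fit that chose the genes, it was 0.72 and 0.10. For 403 lowered genes with a higher change in the mutant, the median was -0.32 at pre and 0.81 at dark, and -0.25 and -0.23 at 24hr and recovery. The larger of the pre and dark differences was that at pre for 63.7% of these raised genes and 22.1% of these lowered ones, beside 45.5% of all tested genes. The share was much the same where the interaction had the other sign, at 62.4% of 213 raised and 20.4% of 240 lowered genes, and the pre and dark libraries are those that chose all these genes. Raised genes are at their lower level at pre and lowered genes at dark, by the way they were chosen. Whether the level of a gene bears on this pattern was not tested. Shares over all raised or all lowered genes were not worked out, so a trait particular to these genes was not tested. Over all tested genes the medians were 0.02 at pre, 0.03 at dark, 0.01 at 24hr and -0.01 at recovery.

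The genes at an unadjusted p under 0.05 were spread over all ID series, from 8.29% of the tested IDs in A09 to 9.40% in A05, with 11.1% of the 234 scaffold IDs. The 8 called genes were 3 in A10, 2 in A05, 2 in A09 and 1 on a scaffold. A run of 253 tested genes at the start of the A03 series had lower levels in the mutant, with a median difference of -0.56 at pre and -0.66 at dark. Its median interaction was -0.03, 0 of its genes were called, and 6.32% had an unadjusted p under 0.05. The run was therefore lower in the mutant by about as much after darkness as before it.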

How the data were processed

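Gene counts were deposited by the authors as whole numbers per gene ID and library, without normalization. The submitters' processing notes name bcl2fastq 2.17.1.14, Trimmomatic 0.36, Bowtie2 and HTSeq. The build, the annotation and the use of strand are not given in the sources used here, so counts of near-identical or overlapping genes are uncertain. Per the labels' protocols, reads were single, of 80 bases. The members, gene lists and tests were chosen with earlier results of these data known.

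From the counts, edgeR 4.0.16 in R 4.3.3 kept 24992 IDs (filterByExpr), scaled libraries by TMM (factors of 0.854 to 1.24 in the 14 libraries) and fitted 8 groups plus pool nested in genotype to all 28 libraries. Quasi-likelihood p-values were adjusted by Benjamini-Hochberg at 0.05. The bias-adjusted form of that test was taken, after both forms had been seen, because it gave the counts of the earlier work. Mutant against wild type at 1 stage was fitted without pool. SEs are the change divided by the root of F. CPM values use the TMM factors, and pool changes use log2 CPM with a prior count of 2. Counting intervals and floors cover counting error only. Calculations were tested on simulated counts.

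Named IDs had the lowest p-values in each direction among 964 with at least 10 CPM in 1 group and pool changes that did not overlap. With the older form of the test, gene a would take the place of BraA09006975. The other called genes and the library letters were described after their values were seen.

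Pool was a block because, per the labels' protocols, its pre and dark libraries shared plants. Their deviations from group means correlated with r from -0.0393 to 0.162 (median -0.0132), beside a median of 0.00941 for different pools of 1 genotype. Same-numbered libraries of the 2 genotypes gave -0.0519 to 0.343 (median 0.19), beside -0.435 to 0.408 (median -0.0995) for other numbers. The median was thus higher for pairs by number than for pre and dark of 1 pool. Libraries from the same leaf of 1 pool, pre with 24hr or dark with recovery, gave -0.152 to 0.625 (median 0.158). Deviations within a group cancel out, so the values for same and for other numbers are linked. The block was kept for the shared plants, and the numbers were not treated as pairs in the main fit. The dark changes of same-numbered pools correlated with r of 0.109, 0.274 and 0.187, beside -0.389 to 0.29 for other numbers. The fit with pairs is therefore given beside the calls. P-values of the fits with the block measure the spread that remains within pools of 3 plants once pool levels are removed. The permutation p-values measure the spread between pools. The fits of mutant against wild type at 1 stage had no block and took all 28 libraries as independent, although libraries of a pool shared plants. The alternatives were DESeq2 1.42.0, RLE scaling, no filter, no block, only the 14 libraries, other prior counts and thresholds, 24hr as the start, pairs by number, and leaving out each pool.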

Additional observations from a re-analysis of the deposited data

Results flagged for a closer look

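The dark change differed between genotypes, by the test of the difference itself, for 8 genes. The log2 interactions (edgeR quasi-likelihood, Benjamini-Hochberg adjusted) were -4.73 for BraA05000169, -4.35 for BraA09006975, -8.53 for gene a, -1.86 for gene b, -5.32 for gene c, -2.81 for gene d, 2.35 for BraA10002002 and 4.32 for gene e. Their values by pool and the settings in which each was lost stand in the report.

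Single libraries or pools stood far from the other 3 of their group in 4 of 55 sets of 4 wild-type values examined, where chance gives about 1 in 20. BraA10002002 had 41.8 CPM in wild-type pool 4 at recovery, against 17.5 to 21.4 CPM in the others. Gene c had 3.39 CPM in wild-type pool 3 at recovery, against 0.894 to 1.24 CPM. The dark change of gene c in wild-type pool 3 was 7.51 log2 units, against 5.15 to 5.55, and this pool had 0 counts at pre. The lowered genes held 52.9% of the counts in wild-type pool 6 at pre, against 56.0% to 56.6%. Their causes were not tested.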

How the results depend on the processing

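The dark interaction called 8 genes. RLE scaling called the same 8 and no filter 7 of them. Pairs by number called 9 and 24hr as the start 7, but only 2 and 4 of these were among the 8. It was 3 without the replicate block, 3 when only the 14 libraries were fitted, 5 with the older quasi-likelihood form (added after seeing the data) and 82 with DESeq2 (30 higher, 52 lower). All 3 without the block were among the 8, but 1 of the 3 from the 14 libraries. Leaving out 1 pool gave 1 to 8, with 1 to 4 of the 8 among them. For recovery minus 24hr the count of 0 became 13 with DESeq2 and 0 to 1 without 1 pool, and was 0 in all other settings. No interaction of the 8 called genes or BraA07002785 changed sign in any setting. The cause of the lost calls was not tested, beyond the fewer libraries in some fits.

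The difference in rise of the raised genes, -0.15, ranged from -0.27 to 0.021 without 1 pool and turned positive without wild-type pool 3. It was -0.39 with changes of at least 2 log2 units, -0.23 with a prior count of 0.5 and -0.18 with pairs by number under the replicate block. That of the lowered genes, -0.03, ranged from -0.29 to 0.14 without 1 pool and was 0.0053 with changes of at least 2 log2 units, 0.0399 with 24hr as the start and 0.044 with pairs by number. The exact permutation p was 0.371 or more in every setting of both, but the smallest possible p is 0.0667 or 0.1 without 1 pool and 0.25 with 3 pairs, so these settings could not pass 0.05. In this design of 3 and 4 pools, the 95% interval of the interaction did not lie within 1 log2 unit of 0 for most genes. What the number of pools or the 2 shallow libraries added to this was not tested.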
